A study of Mus musculus with 19 samples.

Results

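The transcripts of 7 proteins that take lipoproteins into liver cells, or that fold, sort or destroy the receptors that do so, were compared in mice whose hepatocytes had lost Raly. The members were chosen by name, with earlier results of these data known, and are Mylip, Lrp1, Lrpap1, Vldlr, Scarb1, Lsr and Sort1. All 7 were found among the 24054 gene symbols of the deposited RNA-seq table and all 7 had a mean value of at least 1, the level above which 11580 genes were tested.

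Liver RNA came from 6 male C57BL/6 mice on chow diet, all of them Raly flox/flox with LoxP sites around 2 exons of Raly. L-RalyKO mice (n = 3) had received AAV8.TBG.Cre, and controls (n = 3), which the sample labels call wild type, had received AAV8.TBG.GFP. The TBG promoter drives expression in hepatocytes, so Raly in the other cells of the liver was not targeted. Livers were taken 4 weeks after the virus, and the age of these mice is not given in the sources used here. Between 28302983 and 37132274 reads per control mouse and between 34660211 and 38052705 reads per L-RalyKO mouse were counted on genes. A value is a gene's reads scaled for library size and composition (CPM with TMM factors), and it is not divided by gene length. Raly itself, checked first, had a value of 6.34 to 7.39 in L-RalyKO and 46.8 to 50.1 in controls, a log2 fold change of -2.67. Over all genes limma called 758 at an adjusted p under 0.05, of which 389 were higher and 369 lower in L-RalyKO. After scaling to total reads alone the same split was 324 higher and 469 lower. Of the 7 hepatocyte markers none was at 0 in either group.

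Hepatocytes clear lipoproteins from blood by several routes. Receptors of the LDL receptor family bind the apolipoproteins of a particle and carry it into clathrin-coated pits, and the receptor then returns to the surface or is broken down in lysosomes. Scavenger receptor class B type I takes a different route and removes cholesteryl ester from high-density lipoprotein without taking in the particle. Chaperones in the endoplasmic reticulum keep newly made receptors from binding ligand too early, sorting receptors of the Golgi steer cargo towards secretion or the lysosome, and a ubiquitin ligase marks receptors for destruction. RALY is a heterogeneous nuclear ribonucleoprotein, one of a family of RNA-binding proteins of the nucleus, and the comparison asks whether the transcripts of this uptake machinery differ when hepatocytes lack it.

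Of the 7 members 1 (14.3%), Vldlr, was lower in L-RalyKO than in controls at an adjusted p under 0.05, beside 6.55% of all genes tested that were called and 3.19% that were called lower. The other 6 did not pass the threshold. Vldlr had a ratio of group means of 0.524. Scarb1 and Lsr had higher values in every L-RalyKO mouse than in any control, by 14.4% and 11.04% of the control mean, with adjusted p above 0.05. Groups that did not overlap were thus found for 3 members (42.9%), and for 28.1% of all genes tested. After scaling to total reads alone the groups of Scarb1 overlapped (138 to 155 against 126 to 139), and those of Vldlr and Lsr did not. Lrp1, the most abundant of the set per exon length, and Mylip, Lrpap1 and Sort1 had groups that overlapped.

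Promoter sequence is shown for Vldlr, the member that differed, and for Mylip, the member with the most CCAAT boxes. RefSeq promoter windows (GRCm38.p6, 250 bases before to 50 after a start of transcription) were available here for 5 of the 7 members, in 6 windows, and each was placed in NCBIM37 (mm9), the build of the deposited data, by its only exact match. Scarb1 and Sort1 were not matched. Vldlr has 2 of these windows, whose starts lie 536 bases apart. The sequences read 5′ to 3′ on the + strand, and capitals mark ATTGG, the reverse complement of CCAAT, the box bound by the factor NF-Y. The first line holds the 250 bases before the first Vldlr start (chr19:27290724-27290973), the second 30 bases around the box before the second Vldlr start (chr19:27291420-27291449), and the third the 250 bases before the Mylip start (chr13:45484861-45485110).
Vldlr, first start: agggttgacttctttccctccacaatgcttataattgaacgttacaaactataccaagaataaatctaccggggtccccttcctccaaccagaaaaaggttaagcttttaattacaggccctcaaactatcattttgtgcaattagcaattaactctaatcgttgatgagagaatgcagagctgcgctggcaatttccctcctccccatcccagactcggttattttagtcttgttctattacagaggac
Vldlr, second start: caggcacccgggATTGGaggtgaggacggt
Mylip: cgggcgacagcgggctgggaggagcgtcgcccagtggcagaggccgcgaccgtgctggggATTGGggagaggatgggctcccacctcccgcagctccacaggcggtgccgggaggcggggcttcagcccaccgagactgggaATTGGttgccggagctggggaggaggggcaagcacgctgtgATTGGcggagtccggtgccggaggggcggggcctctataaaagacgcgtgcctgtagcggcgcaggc

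The letters CCAAT, searched on both strands over the whole window, were present 3 times before Mylip, 1 time before the second Vldlr start and not in the first Vldlr window, nor in those of Lrp1, Lrpap1 and Lsr. The Lsr window belongs to a start 9700 bases inside the annotated gene. Of 32851 mouse windows of 300 bases 37.4% hold at least 1 match. In Mylip the matches began at positions -190, -108 and -67 from the start, and in Vldlr at position -78, inside the first exon of another annotated Vldlr transcript (chr19:27290974-27291438), of which the 30 bases shown hold 19. The core of the sterol regulatory element, TCACNCCAC, which the SREBP factors bind, was in none of the 6 member windows and in 1.24% of all windows. The 250 bases before the first Vldlr start were 41.6% G and C, against 66.4% before the second start, 60.8% to 71.2% in the other members and a median of 52.4% over all windows. A match of letters does not say that a factor binds there.

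Lrp1 and Vldlr are the receptors of the LDL receptor family among the members. Lrp1 (ENSMUSG00000040249.9, chr10:126975217-127058204 on the - strand, with 89 exons in a main transcript) encodes a very large endocytic receptor that removes chylomicron remnants and many other ligands. Its values were 1225, 1299 and 1381 in the 3 controls and 1505, 1333 and 1343 in the 3 L-RalyKO mice. The groups overlapped, with 1 L-RalyKO mouse above all controls. The means were 1302 ± 78.3 in controls and 1394 ± 96.9 in L-RalyKO (SD, n = 3 each), and the log2 fold change of 0.10 (SE 0.0718, 95% interval -0.07 to 0.26) had an adjusted p of 0.468 in limma. On that scale the interval leaves room for a fold between 0.955 and 1.20. Leaving out 1 mouse moved the log2 fold change between 0.04 (without L-RalyKO replicate 1) and 0.14, and without control replicate 1 it was 0.05.

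Vldlr (ENSMUSG00000024924.7, chr19:27290974-27328721 on the + strand) encodes the very low-density lipoprotein receptor, which binds triglyceride-rich particles and is best known from heart, muscle and fat rather than liver. Its values were 3.79, 3.26 and 3.79 in controls and 1.75, 2.35 and 1.58 in L-RalyKO. The highest L-RalyKO mouse stood below the lowest control. Vldlr fell from 3.61 ± 0.303 in controls to 1.89 ± 0.406 in L-RalyKO (SD, n = 3 each), and thus fell by 47.6%. The log2 fold change of value + 1 was -0.68 (SE 0.122, 95% interval -0.96 to -0.40) at an adjusted p of 0.0155. Adding 1 to a value this low compresses the change, and on the recovered reads edgeR's quasi-likelihood test gave a log2 fold change of -0.94 with an adjusted p of 0.0126. Behind these values stand 127, 93 and 140 reads in controls and 60, 81 and 60 in L-RalyKO, far above the 3 reads taken as the floor of detection. Only 1.06% of the genes tested had a log2 fold change at or below that of Vldlr. Without L-RalyKO replicate 1 the adjusted p was 0.0611 and without control replicate 1 it was 0.0593, at a log2 fold change of -0.65 in both fits. The exact two-sided permutation test of a single gene cannot go below 0.1 with 3 mice against 3, and Vldlr reached that value. In whole liver, fewer cells of a type and less RNA per cell cannot be told apart.

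**Figure D1:**
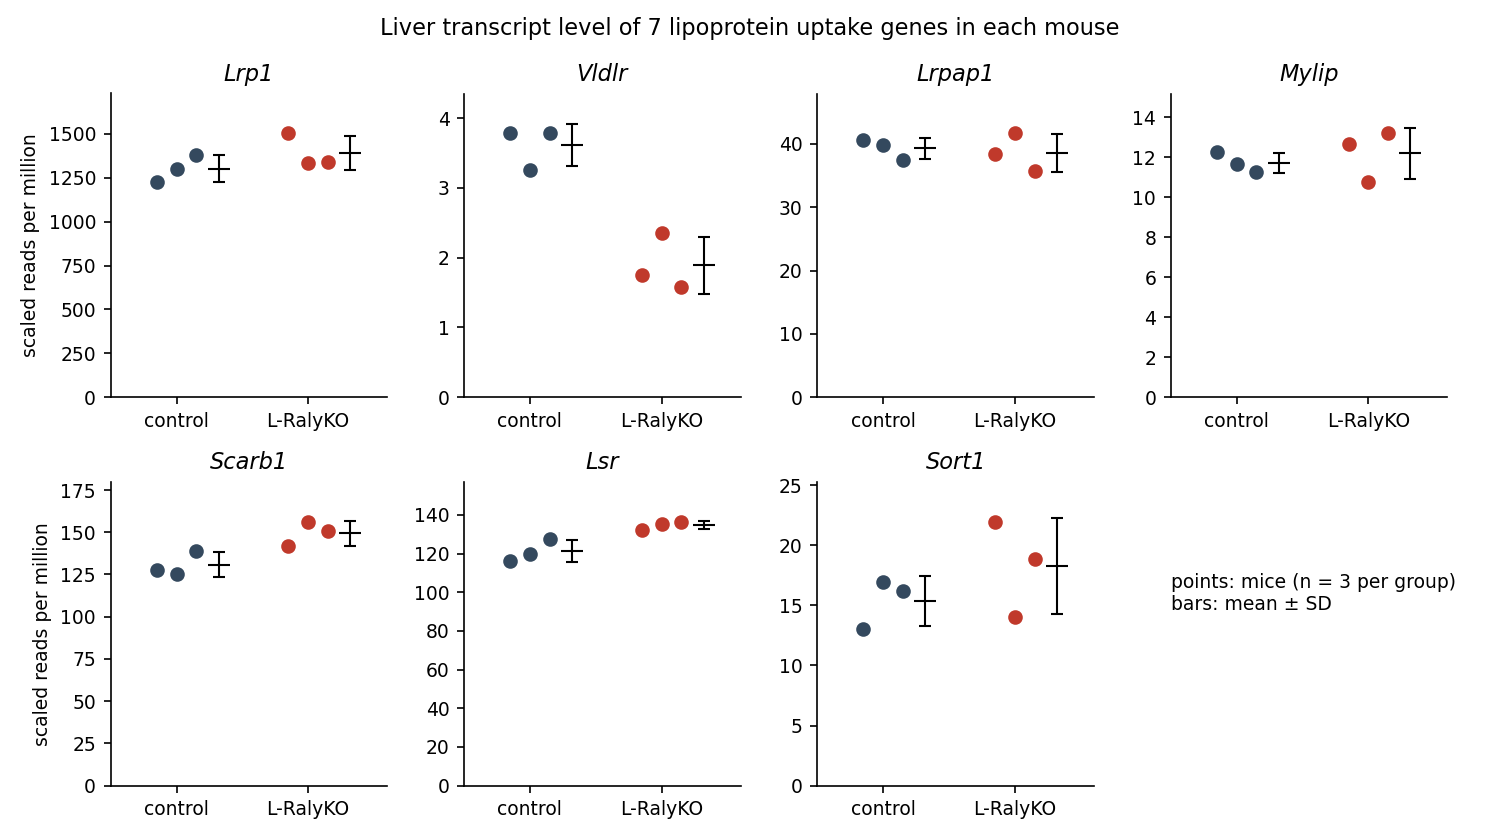
Values of the 7 genes in scaled reads on linear axes that start at 0, with 1 point per mouse and bars for the mean and SD of 3 mice per group. The 3 L-RalyKO mice lie below all controls for Vldlr (1.58 to 2.35 against 3.26 to 3.79) and above all controls for Scarb1 (142 to 156 against 125 to 139) and Lsr (132 to 137 against 116 to 128), while the groups overlap for Lrp1, Lrpap1, Mylip and Sort1.

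The median log2 fold change was 0.10 over the members and 0.00 over all genes tested.

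Lrpap1 and Mylip act on the receptors themselves. Lrpap1 (ENSMUSG00000029103.10, chr5:35434139-35448415 on the - strand) encodes the receptor-associated protein, the chaperone that escorts LRP1 and its relatives through the secretory pathway. It had values of 40.6, 39.9 and 37.4 in controls and 38.5, 41.7 and 35.7 in L-RalyKO. L-RalyKO mice were both the highest and the lowest of the 6. The group means of 39.3 ± 1.65 and 38.6 ± 2.996 (SD, n = 3 each) gave a log2 fold change of -0.03 (SE 0.0669, 95% interval -0.18 to 0.13) and an adjusted p of 0.867. Without L-RalyKO replicate 3 the sign turned, to 0.03.

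Mylip (ENSMUSG00000038175.9, chr13:45485111-45507388 on the + strand) encodes the ubiquitin ligase also called IDOL, which sends receptors of the LDL receptor family to the lysosome and is a target of the sterol-sensing liver X receptors. Its values were 12.3, 11.7 and 11.3 in controls and 12.7, 10.8 and 13.2 in L-RalyKO. As for the chaperone, the L-RalyKO mice spanned the whole range of the controls. The means were 11.7 ± 0.504 and 12.2 ± 1.28 (SD, n = 3 each). On the log2 scale the difference was 0.05 (SE 0.0851, 95% interval -0.14 to 0.24), a fold between 0.905 and 1.18, and the adjusted p was 0.783. Without L-RalyKO replicate 3 the log2 fold change was -0.01. The transcripts of the 2 liver X receptors had log2 fold changes of 0.04 (Nr1h3, adjusted p 0.642) and 0.01 (Nr1h2, adjusted p 0.961), and were named here after their values were seen.

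Scarb1 (ENSMUSG00000037936.9, chr5:125757457-125821464 on the - strand) encodes scavenger receptor class B type I, the high-density lipoprotein receptor of hepatocytes. Its values were 128, 125 and 139 in controls and 142, 156 and 151 in L-RalyKO. All L-RalyKO mice stood above all controls, though the highest control and the lowest L-RalyKO mouse were close. The means were 131 ± 7.42 and 150 ± 7.31 (SD, n = 3 each). The log2 fold change was 0.19 (SE 0.0585, 95% interval 0.06 to 0.33), and with an adjusted p of 0.0907 over all genes it did not pass the threshold. Without control replicate 3, the highest control, the log2 fold change was 0.24 and the adjusted p 0.0479.

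Lsr (ENSMUSG00000001247.9, chr7:31742428-31768188 on the - strand) encodes the lipolysis-stimulated lipoprotein receptor, which takes up particles rich in triglyceride and also builds the corners where 3 epithelial cells meet. Its values were 116, 120 and 128 in controls and 132, 135 and 137 in L-RalyKO. All L-RalyKO mice were again higher than all controls. The means were 121 ± 5.79 and 135 ± 2.16 (SD, n = 3 each), and the log2 fold change of 0.15 (SE 0.0496, 95% interval 0.04 to 0.26) had an adjusted p of 0.112. In the annotation an antisense gene, Gm4673, shares 3660 exonic bases with Lsr. Whether the counting used strand is not given in the sources used here, so reads of the pair may not have been kept apart. The summed level of the 7 hepatocyte markers (Alb, Apoa1, Tat, Cps1, Asgr1, Cyp2e1 and Hnf4a) was likewise higher in every L-RalyKO mouse, 95760 to 96700 against 85320 to 93830, with 1 of the 7, Hnf4a, called higher (log2 fold change 0.55, adjusted p 0.0155), and its part in the values of Scarb1 and Lsr was not tested. The adjusted p of Hnf4a was 0.0617 without L-RalyKO replicate 1 and 0.0509 and 0.0510 without control replicates 1 and 2. After scaling to total reads alone these sums overlapped, at 93040 to 96160 against 88080 to 94550. Alb makes up most of these sums. With TMM factors the groups of Alb overlapped (70090 to 70820 in L-RalyKO against 63860 to 71900 in controls), as did those of Tat, Asgr1 and Cyp2e1. Apoa1, Cps1 and Hnf4a were higher in every L-RalyKO mouse than in any control.

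Sort1 (ENSMUSG00000068747.7, chr3:108087009-108164429 on the + strand) encodes sortilin, a Golgi sorting receptor that binds particles carrying apolipoprotein B and acts on both their secretion and their uptake. It had values of 13.0, 16.9 and 16.2 in controls and 22.0, 14.0 and 18.9 in L-RalyKO. The L-RalyKO group held the highest mouse and also one below 2 of the controls. The means were 15.4 ± 2.09 and 18.3 ± 4.01 (SD, n = 3 each). The log2 fold change of 0.22 had the widest interval of the set, -0.13 to 0.57 (SE 0.154), and an adjusted p of 0.44. Leaving out 1 mouse at a time moved it between 0.09 and 0.39. An antisense transcript, Gm12523, shares 329 exonic bases with Sort1.

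**Figure D2:**
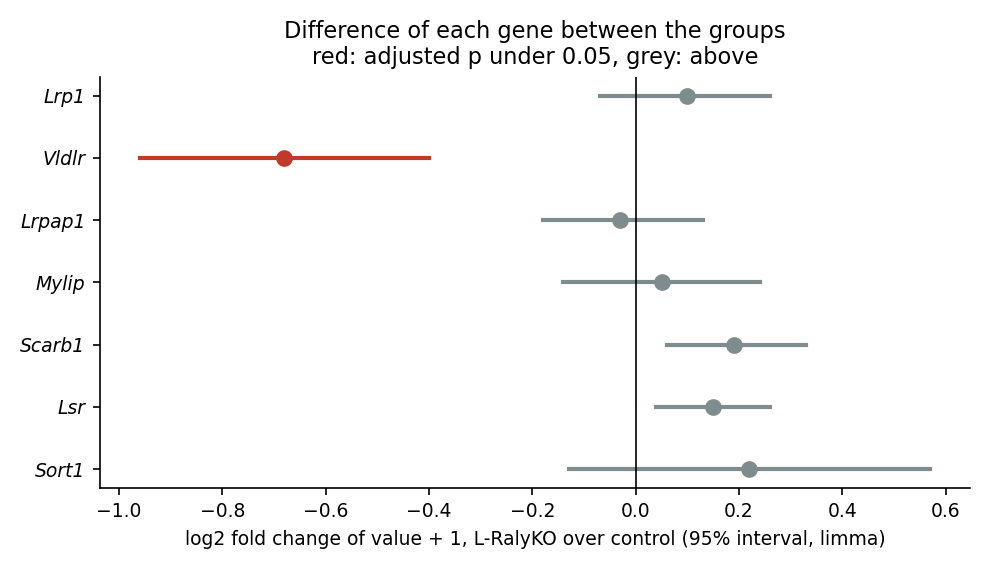
Log2 fold change of value + 1 in L-RalyKO over control for each gene, with the 95% interval of the limma fit as a line and genes of adjusted p under 0.05 in red. The interval of Vldlr runs from -0.96 to -0.40, those of Scarb1 (0.06 to 0.33) and Lsr (0.04 to 0.26) lie above 0 without passing the adjustment over all genes, and the other 4 include 0.

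The members differed in how closely the mice of a group agreed. Lsr was the tightest of the 7 in L-RalyKO, with a coefficient of variation of 1.61%, against 4.78% in controls. Sort1 was the most variable in both groups, at 21.9% in L-RalyKO and 13.6% in controls, and Vldlr had 21.5% and 8.38%. L-RalyKO replicate 2 had the lowest value of its group for Lrp1, Mylip and Sort1 and the highest for Vldlr, Lrpap1 and Scarb1, so that no single mouse was high or low in all members.

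To compare levels between genes, values were divided by the length of all annotated exons of each gene. Per kilobase the controls had 73.5 for Lrp1, 24.2 for Lsr, 20.8 for Scarb1, 9.52 for Lrpap1, 3.83 for Mylip, 2.03 for Sort1 and 0.359 for Vldlr. In L-RalyKO the order was the same, from 78.7 for Lrp1 to 0.188 for Vldlr. Within each group the ranges of neighbouring genes did not overlap, and the neighbours with the smallest ratio of levels were Lsr and Scarb1 (23.2 to 25.5 against 19.9 to 22.1 in controls, and 26.4 to 27.3 against 22.5 to 24.8 in L-RalyKO). Exon length stands in for transcript length here, which can shift a gene with several transcripts.

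**Figure D3:**
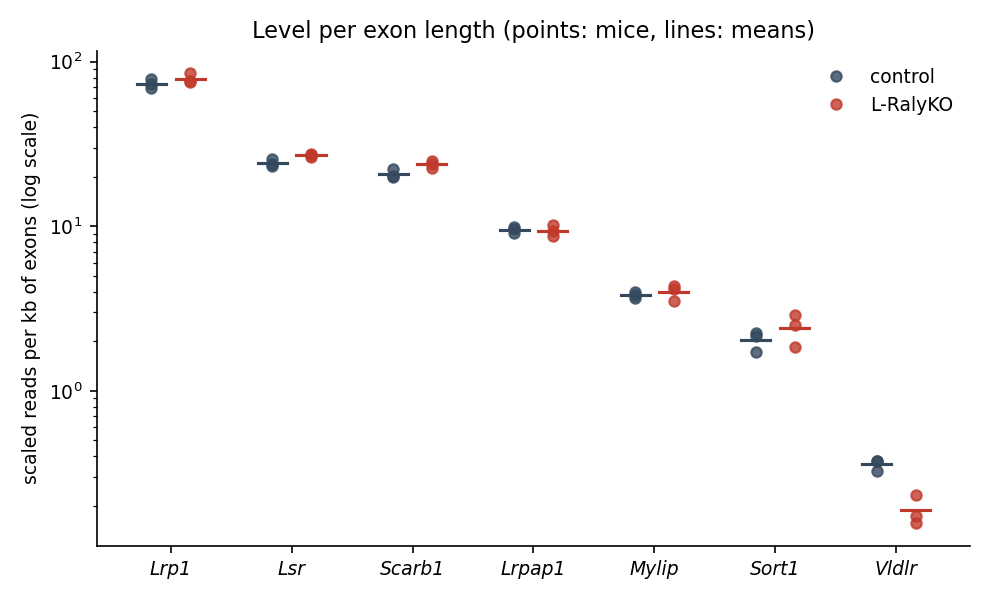
Scaled reads per kilobase of exons on a log axis for each gene in order of its control level, with 1 point per mouse and lines for group means (n = 3 each). Levels run from 73.5 for Lrp1 to 0.359 for Vldlr in controls, and Vldlr, Scarb1 and Lsr have no overlap between the groups.

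The 5 receptors of the set (Lrp1, Scarb1, Lsr, Sort1 and Vldlr) were also expressed as shares of their summed level per kilobase. Lrp1 made up 60.8% ± 0.497 of the sum in controls and 59.6% ± 2.12 in L-RalyKO (SD, n = 3 each), Lsr 20.04% and 20.4%, Scarb1 17.2% and 18.0%, and Sort1 1.68% and 1.83%. Vldlr accounted for 0.271% to 0.328% of the sum in controls and 0.121% to 0.181% in L-RalyKO. The shares depend on the length used. All exons hold 6291 bases in Scarb1 and 5008 in Lsr, against 2521 and 1900 in a main transcript of each. For Lrp1 these lengths are closer, 17717 and 14888, so its share would be lower with main transcripts. These are shares of RNA, and protein was not measured in these files.

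Other genes of lipoprotein uptake were read from a list of 66, of which 64 were in the table and 56 were tested. Of these 2 rose (Usp2 and Lpl), 4 fell (Cd36, Sorl1, Colec12 and Extl3) and 50 did not pass the test. The 6 called genes are 10.7% of those tested, against 6.55% of all genes. The list was drawn up with earlier results of these data known, so this share is a description and not a test. Their median log2 fold change was -0.02, beside 0.00 for all genes, and 13 (23.2%) had groups that did not overlap, against 28.1%. The count of 6 was 3 without L-RalyKO replicate 1, without L-RalyKO replicate 2 or without control replicate 2, and in the same fits the count over all 11580 genes fell as well, from 758 to 332, 437 and 540.

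Of the relatives of Lrp1 and Vldlr, 8 of 11 were tested and 1 fell. Sorl1, a sorting receptor built from domains of both the LDL receptor and sortilin families, had values of 3.22, 2.70 and 2.41 in controls and 0.611, 1.16 and 1.82 in L-RalyKO. Like Vldlr it is low in liver, with 21 to 108 reads per mouse, and its groups did not overlap. The log2 fold change of value + 1 was -0.81 (SE 0.194) with an adjusted p of 0.0441. As for Vldlr the added 1 compresses the change, and the ratio of group means was 0.431 and the log2 fold change in edgeR -1.20. This call is close to the threshold, with an adjusted p of 0.0978 without L-RalyKO replicate 1, 0.107 without L-RalyKO replicate 2, and 0.139, 0.0937 and 0.0574 without control replicates 1, 2 and 3, and of 0.0618 in edgeR. Lrp2, Lrp1b and Lrp8 had mean values under 1 and were not tested.

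Of the genes upstream of Mylip, 6 of 7 were tested and 1 rose. Usp2, a deubiquitinating enzyme that opposes the ligase, had values of 62.4, 63.6 and 66.0 in controls and 99.8, 96.7 and 96.1 in L-RalyKO. The groups lie far apart next to the spread within each. Its log2 fold change was 0.60 (SE 0.0464) with an adjusted p of 5.37e-04, and it was called in all 16 alternatives.

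Among scavenger receptors and the adaptor of SR-BI, 9 of 10 were tested and 2 fell. Cd36, which takes up fatty acids and oxidised lipoprotein, had values of 154, 102 and 107 in controls and 31.5, 43.6 and 35.8 in L-RalyKO. Every L-RalyKO mouse was far below every control, with a log2 fold change of -1.67 (SE 0.161) and an adjusted p of 0.00134. Colec12, a collectin-type scavenger receptor, had values of 64.9, 65.9 and 60.4 in controls and 51.2, 54.0 and 55.7 in L-RalyKO. Its log2 fold change of -0.25 (SE 0.0557) had an adjusted p of 0.0376. It lost the call on leaving out any mouse but control replicate 3, with an adjusted p of 0.132, 0.0924 and 0.0571 without L-RalyKO replicates 1, 2 and 3 and 0.116 and 0.101 without control replicates 1 and 2. Pdzk1, the scaffold that holds SR-BI at the hepatocyte surface, differed by 0.01 on the log2 scale (adjusted p 0.961), and was singled out as the partner of Scarb1 after its value was seen.

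Of the 6 genes of the heparan sulfate route, by which remnants are held on the hepatocyte surface, 1 fell. Extl3, a glycosyltransferase that starts heparan sulfate chains, had values of 35.3, 35.7 and 37.4 in controls and 28.97, 24.9 and 24.6 in L-RalyKO. No L-RalyKO mouse reached the control range, and the log2 fold change was -0.45 (SE 0.0712) with an adjusted p of 0.00947. Of the 3 lipases, Lpl rose. Lpl, lipoprotein lipase, splits the triglycerides of circulating particles and is made by several cell types. It had values of 7.66, 13.5 and 15.6 in controls and 22.1, 31.1 and 22.7 in L-RalyKO, with a log2 fold change of 1.02 (SE 0.228) and an adjusted p of 0.0357. Without L-RalyKO replicates 1, 2 and 3 the adjusted p of Lpl was 0.0742, 0.107 and 0.0705, and without control replicate 2 it was 0.0575. In edgeR's test it was 0.138.

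No gene was called in the other 5 groups of the list, which held 2, 12, 4, 2 and 4 tested genes. Their genes of smallest p were Numb, an endocytic adaptor (log2 fold change -0.13, adjusted p 0.19), Gga3, a Golgi adaptor of sortilin (-0.22, adjusted p 0.163), Npc2, which binds cholesterol in lysosomes (0.13, adjusted p 0.189), Marveld2, tricellulin, a junction partner of Lsr (0.20, adjusted p 0.555), and Mesdc1 (0.20, adjusted p 0.266). With 1 mouse left out the log2 fold change ran from 0.05 to 0.39 for Marveld2 and from 0.14 to 0.30 for Mesdc1. Mesdc1 is the genomic neighbour of Mesdc2, the chaperone of LRP5 and LRP6, and encodes a talin-like protein.

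**Figure D4:**
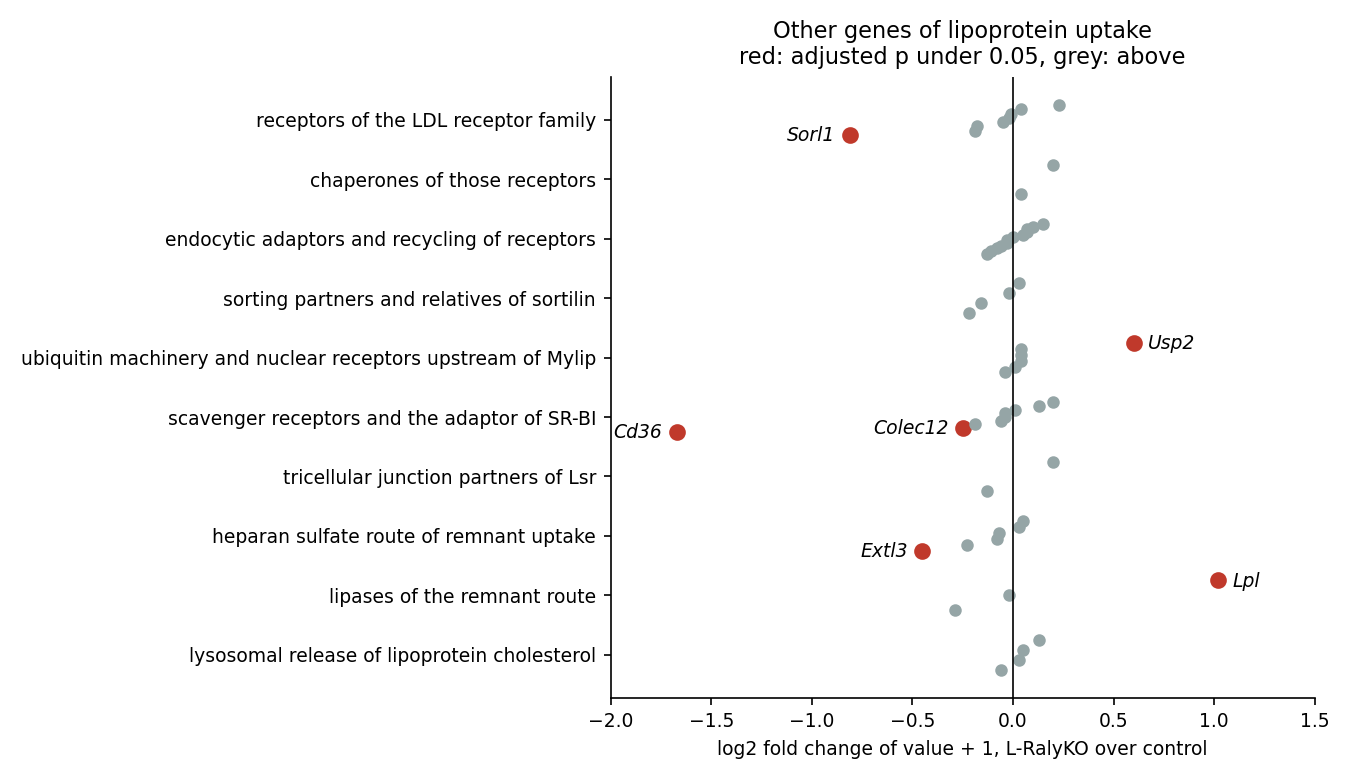
Log2 fold change of value + 1 in L-RalyKO over control for the 56 tested genes of the uptake list, 1 point per gene, in rows by group, with genes of adjusted p under 0.05 in red. Cd36 (-1.67), Sorl1 (-0.81), Extl3 (-0.45) and Colec12 (-0.25) lie left of 0, Usp2 (0.60) and Lpl (1.02) right of it, and the other 50 points lie between -0.29 and 0.23.

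Markers of other liver cells were read beside Vldlr and the list. The 6 sinusoidal endothelial markers summed to 203 to 216 in controls and 180 to 231 in L-RalyKO, and the 6 Kupffer cell markers to 127 to 189 and 133 to 170. Stellate cell markers summed to 216 to 239 and 206 to 268, cholangiocyte markers to 32.5 to 34.7 and 32.2 to 41.0, and leukocyte markers to 7.30 to 9.19 and 5.83 to 8.16. In each of these 5 lists the ranges of the groups overlapped, no tested marker was called and none was at 0 in all mice. Spp1 makes up most of the cholangiocyte sum, and of the other markers of that list Sox9 (4.29 to 5.88 in L-RalyKO against 2.46 to 4.05 in controls, log2 fold change 0.55, adjusted p 0.0774) and Krt19 (0.551 to 1.16 against 0.328 to 0.456, not tested for its low mean) were higher in every L-RalyKO mouse. Their part in the values of Vldlr and the list was not tested.

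By the root mean square difference of log2(value + 1) less its control mean over the 6 mice, the genes nearest to Vldlr among 11573 others were Plcxd1 (0.0542), Srebf1 (0.0632) and Kcnj8 (0.0755). The log2 fold changes of value + 1 were -0.66 for Plcxd1, -0.65 for Srebf1 and -0.60 for Kcnj8. Srebf1 encodes SREBP1, a factor that drives lipid synthesis genes, and Kcnj8 encodes a potassium channel subunit. The added 1 compresses the change of Srebf1 less, since its control mean was 311 against 3.61 for Vldlr. The ratio of group means was 0.644 for Srebf1, against 0.524 for Vldlr, 0.532 for Plcxd1 and 0.5785 for Kcnj8. As in Vldlr, L-RalyKO replicate 2 was the highest of its group in each of the 3 genes and L-RalyKO replicate 3 the lowest. These genes were picked for their likeness, over the same 6 mice, to a gene that differed between the groups. Their own difference and their order of mice follow from that choice and are a description, and no test of either is given.

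**Figure D5:**
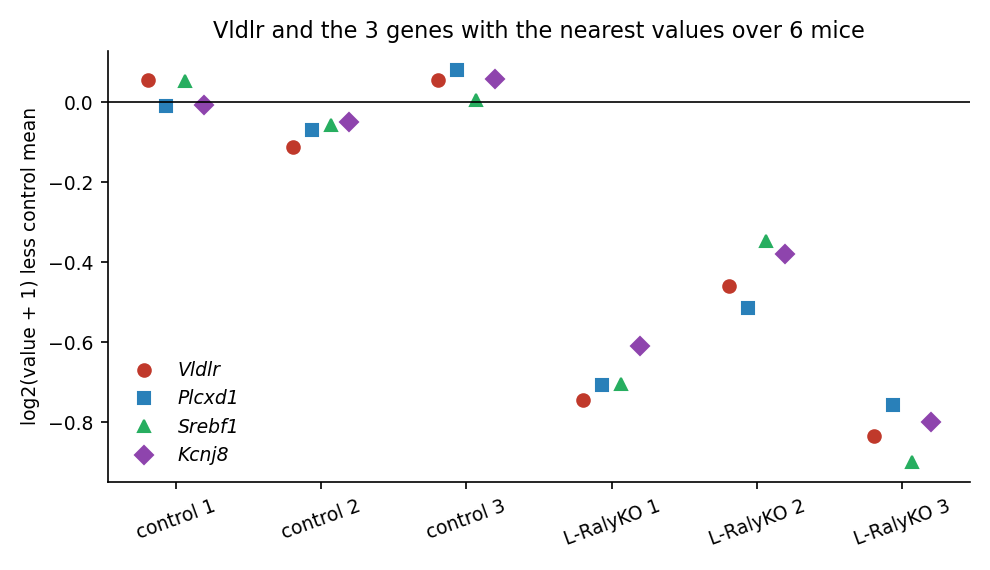
Log2(value + 1) less the control mean in each of the 6 mice for Vldlr and its 3 nearest genes, 1 symbol per gene. In every one of the 4 genes the controls lie around 0, L-RalyKO replicate 2 is the least reduced and L-RalyKO replicate 3 the most. The 3 genes were picked for nearness to Vldlr over these same mice.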

How the data were processed

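RNA-seq of 6 of the 19 samples was analysed. The other 13, ATAC-seq of liver and ChIP-seq of Hepa1-6 cells, were not used here. The authors prepared stranded libraries and aligned reads with TopHat 2.0.2 to mm9. Cufflinks 2.0.2 is named in the submitters' processing notes. The deposited signal values are reads per gene divided by the library's effective size (CPM), with scaling factors equal to those of edgeR's TMM method. In each column 100% of values were whole multiples of 1 read (tolerance 0.01), so that reads were recovered. 3 reads, the floor used, correspond to 0.0789 to 0.105, for counting error only. No sample column was left unused (0).

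Columns were matched to mice by virus and replicate number. The labels do not name the animals, and p-values measure the spread between these samples. Replicates of a group varied 13.3 to 89.3 times as much as sampling alone gives, so no library was counted as a copy of another. Whether same-numbered mice were paired is not given in the labels, and the main fit did not pair them.

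Groups were compared with limma 3.58.1 (intensity trend) on log2(value + 1) for genes whose values averaged 1 or more. P-values were adjusted by Benjamini and Hochberg's method over all of these, and single genes were tested also with an exact permutation test in R 4.3.3 and Python 3.11.15. On simulated data with 3 mice per group limma called 26% of genes changed 1.25-fold, 92% at 1.5-fold and 100% at 2-fold and 3-fold, and 5.92% of calls were false (11586 genes). The simulation gave all genes the same variability between mice and placed no change in the genes of lowest level. These shares therefore do not hold for genes with a wider spread or a lower level. Alternatives were edgeR 4.0.16, DESeq2 1.42.0, limma voom, other scalings, filters and pseudocounts, no trend, a replicate block and leaving out each mouse.

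The members and lists were chosen with earlier results of these data known. Named are all members, list genes with an adjusted p under 0.05, the gene of smallest p in each list group, and the 3 genes nearest to each called member. Nr1h2, Nr1h3, Pdzk1 and single marker genes were named outside this rule, after their values were seen. Also outside it are Lrp2, Lrp1b and Lrp8, named as not tested, and Mesdc2, named as the neighbour of Mesdc1. Gene positions and exon lengths come from GENCODE vM1 (NCBIM37).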

Additional observations from a re-analysis of the deposited data

How the results depend on the processing

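The call of Vldlr and its direction held in 13 of 15 alternatives, and the call was lost in 2. With each mouse left out in turn its log2 fold change ran from -0.79 to -0.60. With a filter at a mean value of 5 Vldlr is not tested, since its mean is lower. Scarb1 passed the threshold in 1 fit, and leaving out a mouse gave 0.16 to 0.24. Mylip ran from -0.01 to 0.13 and Lrpap1 from -0.08 to 0.03 when a mouse was left out, and both turned sign only without L-RalyKO replicate 3. Lrp1, Lsr and Sort1 kept their sign and stayed above the threshold in all 16 alternatives. The call of Sorl1 was lost in 11 alternatives, of Colec12 in 8 and of Lpl in 7, and those of Usp2, Cd36 and Extl3 in none. The uptake list had 3 called genes when every gene with a read was tested and 3 without an intensity trend, and 3 to 5 when a mouse was left out. Of all genes, 484 were called with every gene that had a read, 332 to 813 with a mouse left out, 536 without a trend and 1084 by DESeq2, against 758. The cause of these differences was not tested. Same-numbered mice of the groups had deviations correlated at 0.0664, -0.0238 and 0.0196, and not every mouse correlated best with its own number. With a replicate block 704 genes were called, the list had 4 called genes, Vldlr kept -0.68 (adjusted p 0.0413), Scarb1 0.19 (adjusted p 0.101), Lrp1 0.10, Lsr 0.15, Sort1 0.22, Mylip 0.05 and Lrpap1 -0.03. Depth limits genes as low as Vldlr and Sorl1, with 60 to 140 and 21 to 108 reads per mouse, and 3 mice per group limit all results.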
